A study of Homo sapiens with 12 samples.

Results

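The response to EphB2-Fc in ephrin-B1 knockdown cells was measured as the difference between the 3 libraries of the EphB2 + ephrin-B1 siRNA group and the 3 libraries of the ephrin-B1 siRNA group. These are 6 of the 12 RNA-seq libraries of the series, chosen by their labels alone. All libraries came from HMC3, an immortalized human microglial line. In both groups the cells had received siRNA against ephrin-B1 for 48 h. They were then exposed for 24 h to 2 ug/mL of pre-clustered EphB2-Fc, a soluble fusion of the EphB2 receptor with an antibody Fc part, or to the Fc protein alone (Ctrl-Fc). The remaining groups, Ctrl (control siRNA and Ctrl-Fc) and EphB2 (control siRNA and EphB2-Fc), hold 3 libraries each and are used here to check the knockdown and to set values side by side.

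Ephrin-B1, ephrin-B2 and ephrin-B3 are transmembrane ligands of the EphB receptors. When a clustered EphB receptor binds them, they can signal back into their own cell through their phosphorylated tails and adaptor proteins, which is known as reverse signaling. EphB2 binds all members of the ephrin-B family, and ephrins and Eph receptors are often made by the same cell. In microglia and other innate immune cells, inflammatory stimuli commonly act through NF-kB, which induces its own inhibitors together with cytokines, and through the type I interferon pathway, which induces antiviral genes.

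HMC3 is 1 cell line, and its RNA was checked against markers that define microglia in tissue. Of 20 microglial markers, 13 had at least 10 counts over the 12 libraries and 4 exceeded 1 CPM (counts scaled to the library size) in the knockdown groups. AIF1 and C1QB were at 0 counts, and CX3CR1, TYROBP, C1QA, C1QC and FCGR3A had 1 to 3. The lysosomal marker CD68 was present, with a mean of 26.6 CPM in the ephrin-B1 siRNA group. COL1A1 and FN1, which are typical of fibroblasts and pericytes, reached means of 3154 and 9191 CPM. Of 15 fibroblast and pericyte markers 11 exceeded 1 CPM, while COL3A1, PDGFRA and DCN had means of 0.0881, 0.971 and 0.616 CPM and LUM had 2 counts over the 12 libraries. Estimated counts ran from 13230689 to 25785591 per library, so that a floor of 3 counts was worth 0.122 to 0.237 CPM (counting error only).

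Libraries of the same replicate number carry the same experiment number in all 4 groups, and the deviations of replicates 1 and 2 from their group means were shared between the groups compared, with correlations of 0.75 and 0.72 across 14272 genes. For replicate 3 the correlation was 0.08. Of the genes that differed at least 2-fold between replicates 1 and 2, replicate 3 lay between them in 992 of 1057 in the ephrin-B1 siRNA group and in 961 of 1058 in the EphB2 + ephrin-B1 siRNA group. The reason for this position was not tested. The study describes the libraries of a group as biological replicates. Up to 3 fits of each comparison are therefore given where they differ. They are edgeR's quasi-likelihood fit without the replicate number, the same fit blocked on the replicate number, and the blocked fit without replicate 3. Adjusted p-values are Benjamini-Hochberg values over all genes of a fit, which were 21601, or 20658 without replicate 3, with 0.05 as the threshold.

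The siRNA lowered its target, and EphB2-Fc left it low. EFNB1 (chrX:68829021-68842160, GRCh38) read 20.4, 17.5 and 19.3 CPM in Ctrl, 15.6, 18.8 and 18.4 CPM in EphB2, 7.10, 6.60 and 8.70 CPM in the ephrin-B1 siRNA group, and 6.56, 6.03 and 6.38 CPM in the EphB2 + ephrin-B1 siRNA group. The knockdown groups lay below both control siRNA groups in every library. The log2 fold change was -1.35 (SE 0.13, adjusted p = 0.0012) for ephrin-B1 siRNA against Ctrl and -1.47 (SE 0.13, adjusted p = 0.0019) for EphB2 + ephrin-B1 siRNA against EphB2, comparisons in which 1.81% and 0.616% of all genes passed, 1.15% and 0.407% as lower. Between the knockdown groups EFNB1 differed by -0.24 on the log2 scale (SE 0.13, adjusted p = 0.686). The knockdown was partial, and mRNA of the other ephrin-B ligands was present. EFNB1 made up 11.4 to 14.5% of the summed TPM (the transcript level per length) of EFNB1, EFNB2 and EFNB3 in the ephrin-B1 siRNA libraries and 9.72 to 11.6% in the EphB2 + ephrin-B1 siRNA libraries. It made up 19.4 to 29.9% in the 6 control siRNA libraries. EFNB2 held 45.1 to 58.5% and EFNB3 31.5 to 43.3% of that sum in the 6 knockdown libraries.

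Of the 8 ephrins and 14 Eph receptors, none passed the threshold for a response to EphB2-Fc in the fit without the block (0.116% of all genes tested did), in the blocked fit (6.93%), or in the blocked fit without replicate 3 (0.818%). By DESeq2, and at an unadjusted p under 0.05 in edgeR without the block, the count was likewise 0. EFNB2 differed by 0.26 (log2, SE 0.24) and EFNB3 by -0.09 (SE 0.09). EPHB2, the receptor whose ectodomain was added, had a mean of 48.8 ± 2.94 CPM with Ctrl-Fc and 54.0 ± 2.22 CPM with EphB2-Fc (SD, n = 3; log2 fold change 0.15, adjusted p = 0.738). EPHB4 (-0.06) and EPHA2 (0.00) were within their standard errors of 0. Among 23 genes for adaptors, kinases and other partners of ephrin-B reverse signaling, 0 passed without the block (1 at an unadjusted p under 0.05) and 1 passed with it, the Src family kinase gene YES1, which was lower by 0.21 (SE 0.07, adjusted p = 0.439 without and 0.0343 with the block).

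**Figure D1:**
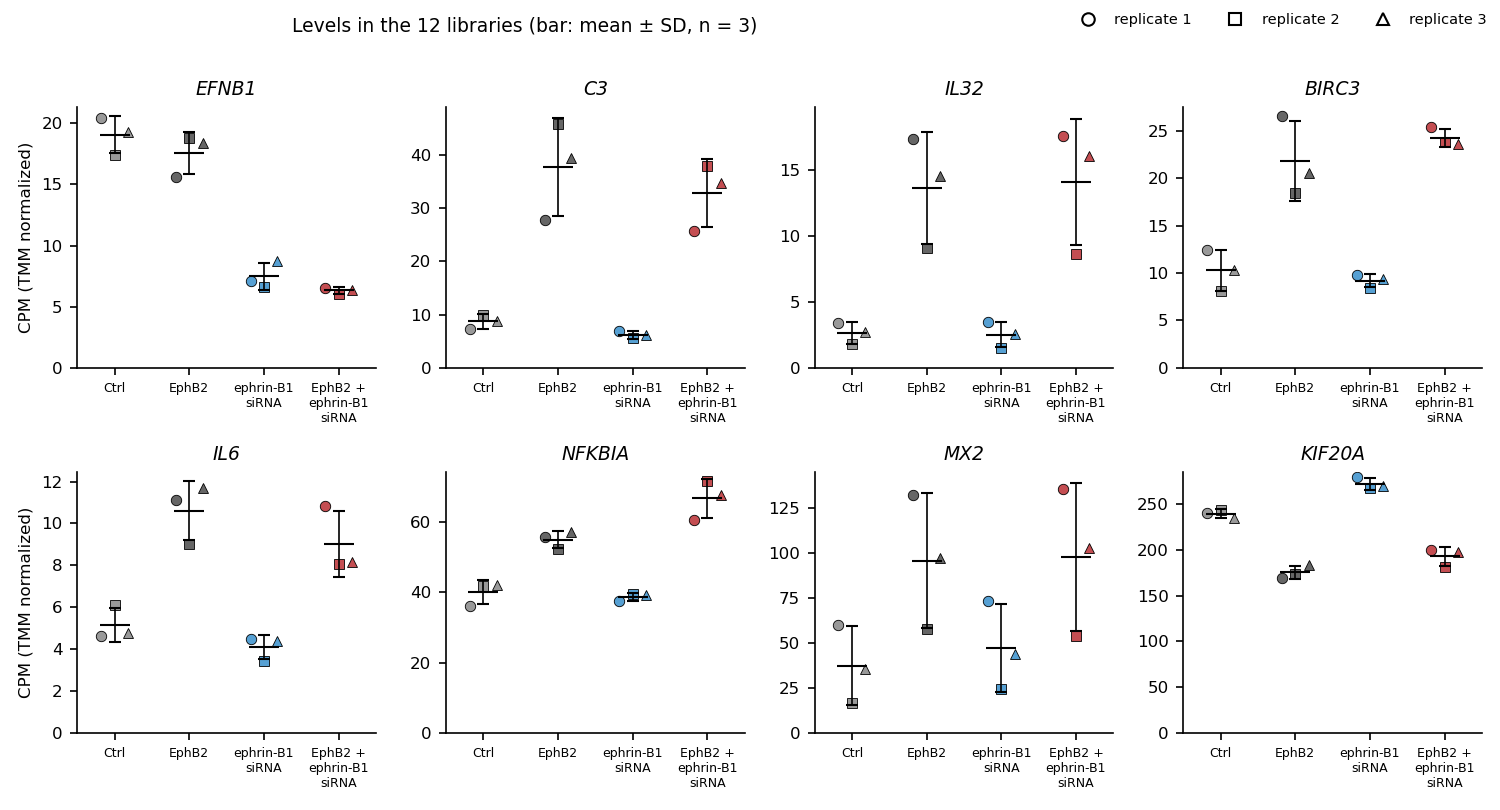
Level of 8 genes in the 12 libraries, in TMM-normalized CPM on linear axes that start at 0. Points are single libraries, with a symbol for each replicate number, and bars give the mean ± SD of 3 libraries. EFNB1 is low in both siRNA groups, C3, IL32, BIRC3, IL6 and NFKBIA are higher with EphB2-Fc in every replicate, the MX2 groups overlap because replicates 1 and 2 are far apart, and KIF20A is lower with EphB2-Fc.

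In the knockdown cells, 25 of 21601 genes (0.116%) passed the threshold after EphB2-Fc in the fit without the block, 18 higher (0.0833%) and 7 lower (0.0324%), and 1828 had an unadjusted p under 0.05. With the block 1496 genes passed (6.93%), 609 higher (2.82%) and 887 lower (4.11%). In the blocked fit without replicate 3, 169 of 20658 genes passed (0.818%), 107 higher (0.518%) and 62 lower (0.3%). By DESeq2 without the block 285 passed (1.32%), 114 higher (0.528%) and 171 lower (0.792%). The study, which used DESeq2, set thresholds of 0.05 on p and 0.4 on the log2 fold change. Read as unadjusted p and applied here to edgeR without the block, they were met by 482 higher (2.23%) and 284 lower genes (1.31%). All 25 genes of the fit without the block also passed in both blocked fits. For each of the 25 the 3 EphB2-Fc libraries lay outside the range of the 3 Ctrl-Fc libraries, against 7.26% of all genes tested that were so separated upward and 7.31% downward. The genes that rose include a complement component, cytokines and inhibitors of NF-kB, which are described below before the other members. Values are given in the order of replicates 1, 2 and 3.

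Promoter sequences of some genes of the results are shown first. They are examples that carry motifs described below, and not a sample of the genes that changed. Each is the 250 bases before the RefSeq transcription start on GRCh38.p14, written 5′ to 3′ on the gene's strand. The search covered both strands for 4 motifs, which were the NF-kB consensus of 10 bases, the interferon-stimulated response element (ISRE) written as GAAA, any 2 bases and GAAA again, the cell cycle homology region written as TTTGAA (CHR), and CCAAT, the site named for the NF-Y factor. In the sequences of NFKBIA (chr14:35404750-35404999, minus strand), BIRC3 (chr11:102317234-102317483, plus strand), IL6 (chr7:22726950-22727199, plus strand) and IL32 (chr16:3065153-3065402, plus strand), capitals mark matches to the NF-kB consensus.
NFKBIA: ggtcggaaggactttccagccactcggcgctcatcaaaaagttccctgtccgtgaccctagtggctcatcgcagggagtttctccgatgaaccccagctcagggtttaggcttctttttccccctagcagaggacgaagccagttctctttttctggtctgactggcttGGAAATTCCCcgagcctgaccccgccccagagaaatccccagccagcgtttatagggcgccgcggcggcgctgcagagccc
BIRC3: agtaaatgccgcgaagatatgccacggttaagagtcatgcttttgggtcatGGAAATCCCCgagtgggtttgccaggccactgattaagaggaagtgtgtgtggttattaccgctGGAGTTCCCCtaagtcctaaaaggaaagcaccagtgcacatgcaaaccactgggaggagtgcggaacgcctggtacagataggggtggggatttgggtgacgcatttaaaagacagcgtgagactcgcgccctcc
IL6: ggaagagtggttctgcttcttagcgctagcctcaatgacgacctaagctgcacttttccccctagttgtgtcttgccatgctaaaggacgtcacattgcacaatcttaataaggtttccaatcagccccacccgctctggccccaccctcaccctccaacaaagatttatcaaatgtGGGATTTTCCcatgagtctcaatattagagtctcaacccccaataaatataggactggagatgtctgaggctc
IL32: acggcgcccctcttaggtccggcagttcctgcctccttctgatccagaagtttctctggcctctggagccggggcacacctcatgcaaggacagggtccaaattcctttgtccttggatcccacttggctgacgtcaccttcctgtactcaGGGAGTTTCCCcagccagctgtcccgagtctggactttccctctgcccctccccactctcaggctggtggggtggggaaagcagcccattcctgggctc
BIRC3 held 2 separate matches and IL32 a pair that overlap. The NF-kB consensus was found in 801 of the 13482 promoters of all genes tested (5.94%), in 5 of the 15 promoters available for the 18 genes that rose without the block (33.3%), which were those of IL32, BIRC3, NFE2L3, NFKBIA and IL6, and in 0 of 6 available for the 7 that fell. Among genes higher with the block it was in 60 of 476 promoters (12.6%), and among those lower with the block in 36 of 705 (5.11%). A match is a description of these letters and not evidence of binding.

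In the next pair, of the interferon-stimulated genes ISG20 (chr15:88638766-88639015, plus strand) and IFITM1 (chr11:313790-314039, plus strand), capitals mark the ISRE. Both were picked from the 27 of 53 available promoters of the interferon list used below (50.9%) that held an ISRE. MX2, IFI35 and RIGI, described below, are not among the 27.
ISG20: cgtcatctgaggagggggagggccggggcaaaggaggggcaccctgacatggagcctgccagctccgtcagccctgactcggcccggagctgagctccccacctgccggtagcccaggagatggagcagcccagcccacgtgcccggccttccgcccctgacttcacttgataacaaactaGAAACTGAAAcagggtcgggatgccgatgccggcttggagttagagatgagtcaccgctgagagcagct
IFITM1: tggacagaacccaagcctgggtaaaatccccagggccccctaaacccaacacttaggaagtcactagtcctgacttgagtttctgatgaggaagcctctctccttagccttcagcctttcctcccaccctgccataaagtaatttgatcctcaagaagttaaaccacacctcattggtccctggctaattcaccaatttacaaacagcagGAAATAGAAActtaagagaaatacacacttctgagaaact
The ISRE was in 337 of the 13482 promoters (2.50%), in 37 of 476 of the genes higher with the block (7.77%), in 8 of 705 of those lower with the block (1.13%) and in 0 of 15 of those that rose without the block. The last 3 are promoters of mitotic genes, KIF20A (chr5:138178862-138179111), CCNB2 (chr15:59104896-59105145) and PLK1 (chr16:23678639-23678888), all on the plus strand, with the CHR and CCAAT in capitals.
KIF20A: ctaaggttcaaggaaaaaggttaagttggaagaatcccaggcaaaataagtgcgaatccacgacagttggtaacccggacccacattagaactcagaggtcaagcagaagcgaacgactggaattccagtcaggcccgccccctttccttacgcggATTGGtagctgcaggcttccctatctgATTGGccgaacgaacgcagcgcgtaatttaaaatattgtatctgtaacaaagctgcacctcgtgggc
CCNB2: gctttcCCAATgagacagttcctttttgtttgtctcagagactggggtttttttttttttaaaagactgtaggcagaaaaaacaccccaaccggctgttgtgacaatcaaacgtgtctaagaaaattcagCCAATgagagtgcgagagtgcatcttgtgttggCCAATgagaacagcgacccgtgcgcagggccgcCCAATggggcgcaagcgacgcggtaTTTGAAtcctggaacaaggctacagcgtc
PLK1: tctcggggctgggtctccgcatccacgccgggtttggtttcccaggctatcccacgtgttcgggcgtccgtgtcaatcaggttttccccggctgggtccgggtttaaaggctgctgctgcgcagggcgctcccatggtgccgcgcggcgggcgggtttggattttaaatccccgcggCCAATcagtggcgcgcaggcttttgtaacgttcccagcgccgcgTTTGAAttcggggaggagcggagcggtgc
KIF20A held CCAAT on the reverse strand and no CHR in this window, whereas CCNB2 and PLK1 held both motifs. The CHR was in 9.47% and CCAAT in 34.6% of all promoters, and in 56.7% and 80.0% of the 30 promoters available for the mitotic list used below.

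NF-kB inhibitors and targets were higher with EphB2-Fc in the knockdown cells. NFKBIA encodes IkBalpha, which holds NF-kB in the cytoplasm and is itself induced by it. It read 37.4, 39.5 and 39.2 CPM with Ctrl-Fc and 60.7, 71.8 and 67.8 CPM with EphB2-Fc, which is 0.79 higher on the log2 scale (SE 0.08, adjusted p = 0.00716). The groups were well apart, and the spread within each was small. BIRC3, a ubiquitin ligase that restrains cell death and the alternative NF-kB pathway, read 9.78, 8.42 and 9.33 CPM against 25.4, 23.9 and 23.6 CPM (log2 change 1.40 with SE 0.17, adjusted p = 0.00955). Its lowest EphB2-Fc library was well above its highest Ctrl-Fc library.

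Of 31 NF-kB feedback genes and targets, all tested, 29 had a positive log2 fold change (50.1% of all genes did), and the median was 0.36 against 0.00 over all genes. Without the block 2 rose, NFKBIA and BIRC3 (background 0.0833%), with the block 16 rose and 0 fell (2.82% and 4.11%), and without replicate 3 in the blocked fit 7 rose (0.518%). NFKB2, a subunit of the alternative pathway, read 73.1, 89.1 and 84.3 CPM against 117, 136 and 134 CPM (log2 fold change 0.65, adjusted p = 0.0553 without and 9.46e-06 with the block). TNIP1, which dampens NF-kB together with the A20 protein, differed by 0.51 (adjusted p = 0.0622 without and 3.38e-05 with the block). Both were separated between the groups in the libraries but lay just above the threshold without the block. RELA, the gene of the main transactivating subunit, read 165, 166 and 174 CPM against 174, 178 and 173 CPM, and these ranges overlapped (log2 fold change 0.06, adjusted p = 0.897).

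Several cytokine transcripts were higher as well, IL32 by the largest log2 fold change among the 18 genes that rose without the block. IL32 (chr16:3065297-3082192), a proinflammatory cytokine, read 3.47, 1.52 and 2.55 CPM with Ctrl-Fc and 17.6, 8.60 and 16.0 CPM with EphB2-Fc, which is a change of 2.48 on the log2 scale (SE 0.38, adjusted p = 0.0391). Replicate 2 was the lowest library of both groups, and every EphB2-Fc library exceeded every Ctrl-Fc library. IL6 (chr7:22725884-22732002), a cytokine of acute inflammation, read 4.47, 3.45 and 4.37 CPM against 10.8, 8.08 and 8.17 CPM (log2 change 1.14 with SE 0.18, adjusted p = 0.0478). It lay close to the threshold without the block, and DESeq2 gave it no adjusted p because its counts fell below that tool's filter.

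Of 44 cytokines and chemokines, 38 had enough counts to be tested, 30 with a positive and 8 with a negative log2 fold change, and the median was 0.65. Without the block IL6 and IL32 rose (0.0833% of all genes rose), with the block 11 rose and 1 fell (2.82% and 4.11%), and without replicate 3 in the blocked fit 6 rose (0.518%), namely CXCL1, CXCL8, IL1B, IL6, IL11 and IL32. CXCL8, a chemokine for neutrophils, read 9.89, 4.73 and 6.63 CPM against 33.7, 19.4 and 21.2 CPM (log2 change 1.81 with SE 0.43, adjusted p = 0.194 without and 9.67e-05 with the block). The groups did not overlap, but replicate 1 stood above replicate 2 in each. CXCL1, of the same chemokine family, differed by 1.46 (adjusted p = 0.428 without and 0.000617 with the block), and IL1B, the gene of interleukin-1 beta, by 1.05 (adjusted p = 0.291 and 0.00048). IL18, the member that fell with the block, differed by -0.55 (adjusted p = 0.402 and 0.0268). Some members were at or near the floor. TNF and CCL8 had 0 counts over the 12 libraries, CCL3, CCL4 and CCL7 had 2 or 3, CXCL10 had 7, and CSF2 read at most 0.158 CPM in the 6 libraries.

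C3, the central component of the complement cascade, had the lowest adjusted p of all genes in the fit without the block. It (chr19:6677704-6730562) read 6.94, 5.49 and 6.15 CPM with Ctrl-Fc and 25.8, 38 and 34.8 CPM with EphB2-Fc, which is 2.40 higher on the log2 scale (SE 0.21, adjusted p = 0.00321). C3 was the member of the complement list that passed, and the other members passed in none of the 3 fits. The 18 members had a median log2 fold change of 0.02, with 10 positive. CFB, the partner of C3 in the alternative pathway, differed by 0.23 (SE 0.27).

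Interferon-stimulated genes were higher in each same-numbered pair by a modest amount, and replicates 1 and 2 of a group differed by more than the response. Of 67 such genes, 65 were positive on the log2 scale and the median was 0.41. Without the block 0 passed in edgeR (22 were higher at an unadjusted p under 0.05), with the block 49 rose and 0 fell (2.82% of all genes rose), in the blocked fit without replicate 3 9 rose (0.518%), and by DESeq2 without the block 8 rose (0.528%). The median ratio of replicate 1 to replicate 2 over these genes was 0.74 (log2) in the ephrin-B1 siRNA group and 0.58 in the EphB2 + ephrin-B1 siRNA group, while the median response was 0.38, 0.46 and 0.48 in pairs 1, 2 and 3. The summed CPM of the list was 11781, 7694 and 9573 with Ctrl-Fc and 14841, 10341 and 12883 with EphB2-Fc. These sums overlap between the groups and rise within each pair.

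MX2, an antiviral GTPase, read 73.0, 24.3 and 43.7 CPM with Ctrl-Fc and 136, 53.9 and 103 CPM with EphB2-Fc (log2 change 1.05 with SE 0.51, adjusted p = 0.622 without and 2.61e-05 with the block). Its groups overlapped, because replicate 1 with Ctrl-Fc was above replicate 2 with EphB2-Fc. ISG20, an exonuclease against viral RNA, read 12.9, 6.84 and 9.95 CPM against 21.1, 18.2 and 20.5 CPM (log2 fold change 1.01, adjusted p = 0.195 and 0.000143). IFI35 (0.76, adjusted p = 0.372 and 3.38e-05) and RIGI, a cytoplasmic sensor of viral RNA (0.68, adjusted p = 0.51 and 0.000717), were separated between the groups. IFITM1, which hinders virus entry at membranes, read 60.4, 31.6 and 42.4 CPM against 115, 73.9 and 93.6 CPM (1.07, adjusted p = 0.469 and 0.000556), and its relative IFITM3 differed by 0.33 (adjusted p = 0.513 and 0.0223). Reads of the near-identical IFITM genes and of the HLA genes can be assigned to the wrong copy. IRF7 and DDX60L are not described because their counts moved between transcripts from library to library. Both are still counted in the 49 members that rose with the block, and DDX60L in the 9 that rose without replicate 3.

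Of 20 genes for antigen presentation on MHC class I, 19 were tested, 17 with a positive log2 fold change and a median of 0.29 in CPM (negative on the TPM scale described further on). Without the block 0 passed in edgeR (3 were higher at an unadjusted p under 0.05), and 3 rose by DESeq2 (0.528% of all genes rose). With the block 7 rose and 0 fell (2.82% and 4.11% of all genes). Of these, 2, TAPBP and PSMB10, also rose in the blocked fit without replicate 3 (0.518%). TAPBP, the tapasin that loads peptides, read 116, 88.8 and 115 CPM against 161, 130 and 161 CPM (log2 fold change 0.50, adjusted p = 0.205 without and 0.000128 with the block).

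**Figure D2:**
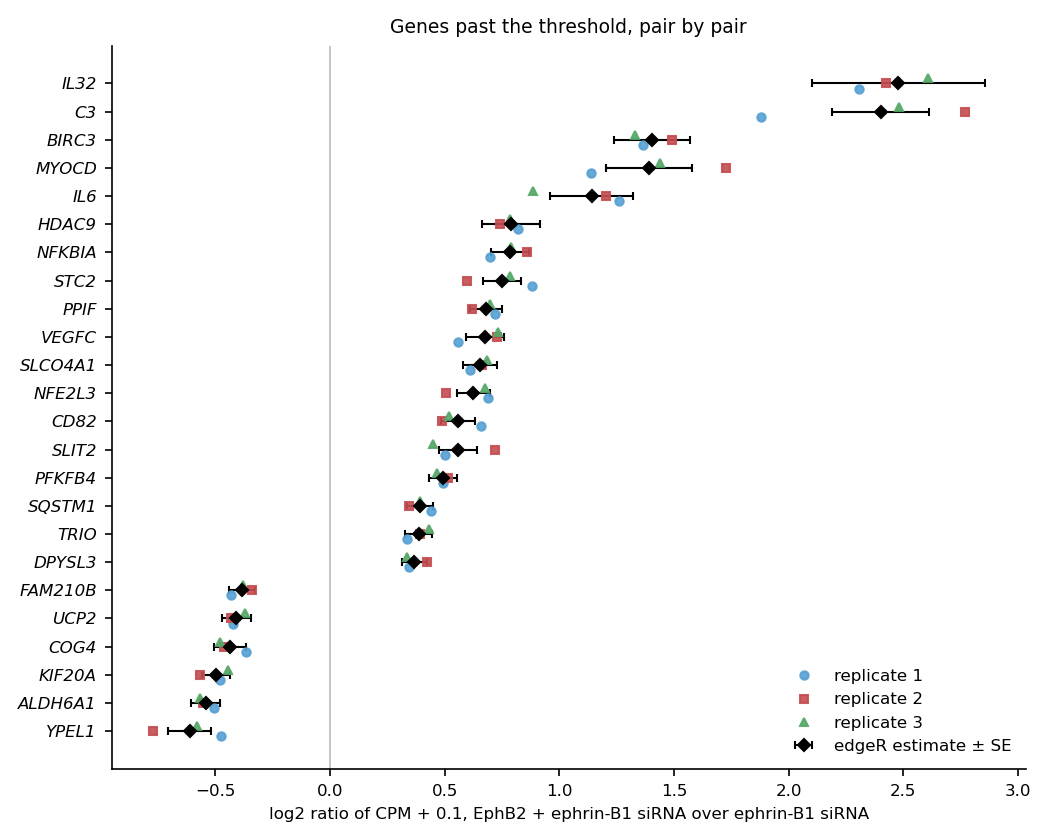
Log2 ratio of EphB2 + ephrin-B1 siRNA over ephrin-B1 siRNA for 24 of the 25 genes past the threshold without the block, UPK1A left out because it had no counts with EphB2-Fc. Colored symbols are the ratios of CPM + 0.1 in the 3 same-numbered pairs and black diamonds the edgeR log2 fold change ± SE. All 3 pairs lie on the same side of 0 for each gene, with IL32 and C3 farthest to the right.

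MYOCD, a co-activator of serum response factor in smooth muscle, read 31.2, 16.0 and 23.4 CPM with Ctrl-Fc and 68.7, 53.2 and 63.6 CPM with EphB2-Fc (log2 change 1.39 with SE 0.19, adjusted p = 0.0166). HDAC9, a class IIa histone deacetylase, had means of 16.0 ± 1.61 and 27.6 ± 3.48 CPM (SD, n = 3; log2 fold change 0.79, adjusted p = 0.0478). Both are members of the smooth muscle list. Of its 24 genes 14 were positive, and the median was 0.03. With the block MYOCD, HDAC9 and SMTN rose (2.82% of all genes rose) while ACTA2, CNN1, CNN2 and LMOD1 fell (4.11% fell).

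STC2, a secreted glycoprotein, read 189, 222 and 199 CPM against 348, 335 and 343 CPM (log2 change 0.75 with SE 0.08, adjusted p = 0.00783). PPIF, the mitochondrial cyclophilin of the permeability pore, read 136, 127 and 122 CPM against 223, 195 and 198 CPM (0.68, SE 0.07, adjusted p = 0.00716). VEGFC, a growth factor of lymphatic vessels, read 24.4, 25.1 and 26.1 CPM against 36.0, 41.5 and 43.3 CPM (0.68, SE 0.08, adjusted p = 0.00966). In these 3 genes the groups were far apart relative to the spread within them. SLCO4A1, a transporter of organic anions, rose by 0.65 (adjusted p = 0.00783) and the transcription factor NFE2L3 by 0.63 (adjusted p = 0.0079). These and the 6 genes that follow were named after their values were seen. PFKFB4 is also a member of the glycolysis list, but the lists were chosen with earlier results of these data known. The 6 are CD82 (0.56), a tetraspanin, SLIT2 (0.56), a secreted guidance cue, PFKFB4 (0.49), SQSTM1 (0.39), the autophagy receptor p62, TRIO (0.39), an exchange factor for small GTPases, and DPYSL3 (0.37), a cytoskeletal protein of growing axons, with adjusted p between 0.00966 and 0.0393.

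UPK1A (chr19:35666517-35678481), a tetraspanin of the bladder lining, had 3.84, 1.40 and 2.31 CPM with Ctrl-Fc and 0 in all 3 libraries with EphB2-Fc, or 145 counts against 0, which is at least 46.7-fold lower against a floor of 3 counts over the group (adjusted p = 0.00966). It is a low gene, and its counts are estimates that kallisto assigned to a single transcript, with 1.33 to 3.20 CPM in the EphB2 group and 1.20 to 1.39 CPM in Ctrl. ALDH6A1, a mitochondrial enzyme of valine breakdown, read 69.2, 70.1 and 68.5 CPM against 48.7, 47.7 and 46.1 CPM (log2 change -0.54 with SE 0.07, adjusted p = 0.00955). YPEL1 (-0.61), COG4 (-0.44), a subunit of a Golgi tethering complex, UCP2 (-0.41), a mitochondrial carrier, and FAM210B (-0.38) also fell, with adjusted p between 0.0299 and 0.046.

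Among genes that fell with the block alone, TXNIP, an inhibitor of thioredoxin and of glucose uptake, read 308, 284 and 282 CPM with Ctrl-Fc and 209, 164 and 187 CPM with EphB2-Fc (log2 change -0.64 with SE 0.12, adjusted p = 0.1 without and 1.54e-05 with the block). ABCA8, a lipid transporter, differed by -0.80 (adjusted p = 0.162 and 2.61e-05) and ITGB4, a laminin receptor subunit, by -0.55 (adjusted p = 0.103 and 3.38e-05). All 3 were lower in every EphB2-Fc library than in any Ctrl-Fc library.

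Mitotic genes were lower by small amounts across nearly the whole list. KIF20A, a kinesin needed for cytokinesis, read 279, 268 and 270 CPM with Ctrl-Fc and 200, 181 and 198 CPM with EphB2-Fc (log2 change -0.50 with SE 0.06, adjusted p = 0.00955). Of 36 genes of mitosis and G2/M, 35 had a negative log2 fold change and the median was -0.20. Without the block KIF20A fell (0.0324% of all genes fell), and with the block 22 fell and 0 rose (4.11% and 2.82%). In the blocked fit without replicate 3 KIF20A and DLGAP5 fell (0.3%), and by DESeq2 12 fell (0.792%). The EphB2-Fc libraries lay below all Ctrl-Fc libraries for 22 of the 36 members (7.31% of all genes).

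CCNB2, a cyclin of mitotic entry, read 161, 172 and 166 CPM against 132, 139 and 135 CPM (log2 fold change -0.30, adjusted p = 0.119 without and 0.0005 with the block). PLK1, a kinase of mitosis, read 184, 183 and 187 CPM against 144, 156 and 147 CPM (-0.31, adjusted p = 0.108 and 0.00115). In both genes the groups were apart, and without replicate 3 the blocked adjusted p was 0.0648 and 0.0833. The summed CPM of the list was 9012, 9179 and 9008 with Ctrl-Fc and 7695, 8171 and 7905 with EphB2-Fc. Of 34 genes of G1/S and DNA replication, 22 were positive, the median was 0.03, and with the block 2 rose and 0 fell (2.82% and 4.11% of all genes).

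Targets of p53 were also lower, with 19 of 25 negative and a median of -0.23. Without the block 0 passed in edgeR (11 were lower at an unadjusted p under 0.05), and 4 fell by DESeq2 (0.792% of all genes fell). With the block 13 fell and 0 rose (4.11% and 2.82% of all genes). In the blocked fit without replicate 3 ZMAT3 and POLH fell (0.3%). POLH, a polymerase that copies past damaged bases, read 118, 101 and 112 CPM against 86.8, 76.5 and 82.3 CPM (log2 fold change -0.43, adjusted p = 0.124 without and 0.000162 with the block). ZMAT3, an RNA-binding p53 target, differed by -0.51 (adjusted p = 0.162 and 0.000235).

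**Figure D3:**
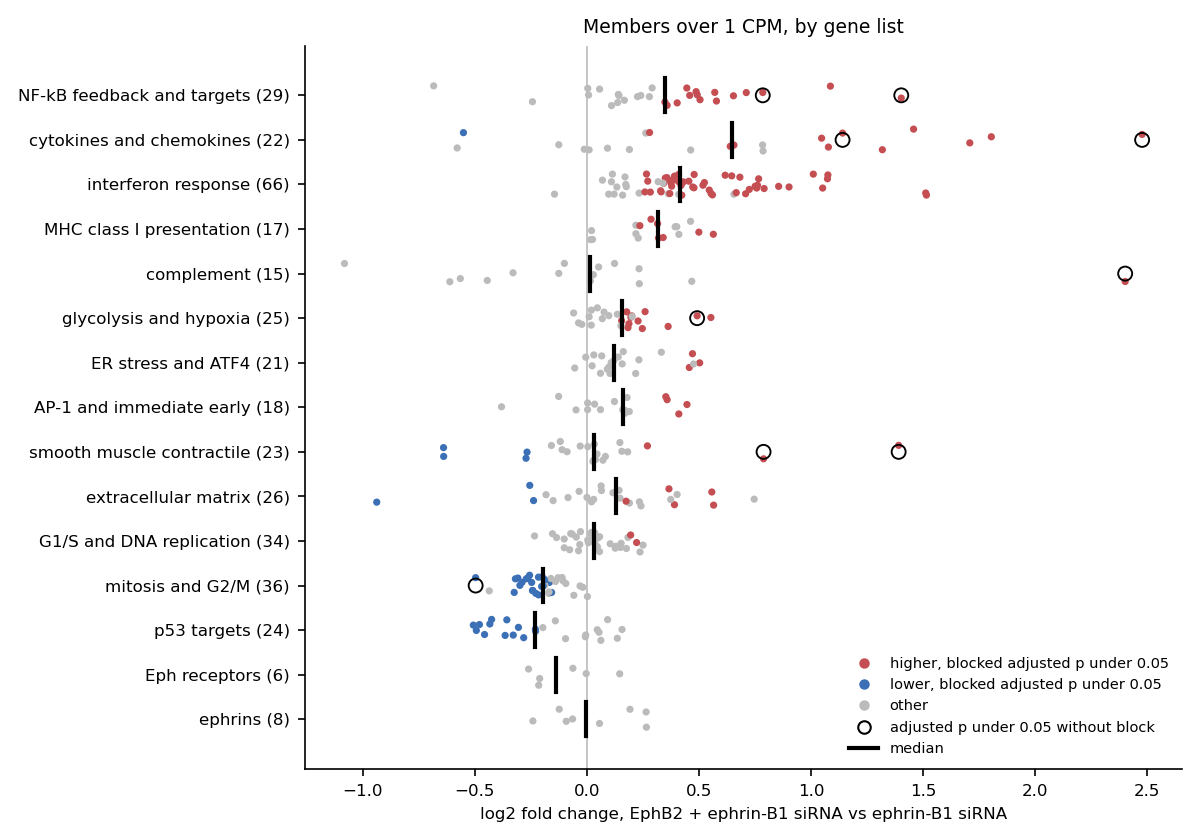
Log2 fold change of EphB2 + ephrin-B1 siRNA against ephrin-B1 siRNA for the members over 1 CPM of 15 gene lists, with their number in parentheses. Each point is a gene, colored where it passed with the block, and ringed where it passed without it, and thick bars are medians. Interferon genes lie almost wholly to the right of 0 and mitotic genes almost wholly to the left, while the ephrins and Eph receptors hold no colored point.

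Glycolysis and hypoxia genes were slightly higher in CPM, though not on the TPM scale described further on. Of 25, 22 were positive and the median was 0.16. Without the block PFKFB4 rose (0.0833% of all genes rose), and with the block 12 rose and 0 fell (2.82% and 4.11%). In the blocked fit without replicate 3 PFKFB4 alone of the list passed, as a rise (0.518%). PFKFB4, which makes the activator of phosphofructokinase, read 35, 35.1 and 35 CPM with Ctrl-Fc and 49.3, 50.2 and 48.5 CPM with EphB2-Fc (log2 change 0.49 with SE 0.06, adjusted p = 0.00966). The replicates were nearly equal within each group. HK2, a hexokinase, differed by 0.36 (adjusted p = 0.324 without and 0.00243 with the block) and CA9, a carbonic anhydrase induced by hypoxia, by 0.55 (adjusted p = 0.342 and 0.00234). Of 21 genes of ER stress and ATF4, 19 were positive with a median of 0.12, and with the block TRIB3, CHAC1 and SLC7A11 rose (2.82% of all genes).

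Matrix and protease genes moved in both directions. Of 28 extracellular matrix genes, with a median of 0.13, 0 passed without the block in edgeR (2 higher and 2 lower at an unadjusted p under 0.05). By DESeq2 1 fell (0.792% of all genes fell), and with the block in edgeR 5 rose and 3 fell (2.82% and 4.11%). COL6A1 read 482, 307 and 405 CPM against 641, 519 and 598 CPM (log2 fold change 0.56, adjusted p = 0.374 without and 0.000259 with the block), and COL1A2 read 43.9, 87.8 and 70.2 CPM against 29.4, 45.4 and 30.5 CPM (-0.94, adjusted p = 0.457 and 0.000593). The COL1A2 groups overlapped, and each pair was lower with EphB2-Fc. TIMP2, an inhibitor of metalloproteinases, differed by -0.24 (adjusted p = 0.194 and 0.00233). Of 19 proteases and inhibitors tested, 5 rose and 2 fell with the block (2.82% and 4.11% of all genes).

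Immediate early and ERK feedback genes, which often respond within hours of a stimulus, were read here at 24 h. Of 19 AP-1 and immediate early genes tested, with a median of 0.16, 0 passed without the block in edgeR (3 higher at an unadjusted p under 0.05). By DESeq2 1 rose (0.528% of all genes rose), and with the block in edgeR 4 rose (2.82%). Of 18 genes listed under ERK feedback, with a median of 0.13, 0 passed without the block in edgeR (2 higher at an unadjusted p under 0.05) and 0 by DESeq2. With the block 2 rose (2.82% of all genes rose), ETV4 and the cytokine receptor gene IL4R. Of 24 cholesterol synthesis genes, with a median of 0.07, 0 passed without the block in edgeR (1 higher and 1 lower at an unadjusted p under 0.05, and 0 by DESeq2) and 1, TM7SF2, fell with it (4.11% of all genes fell). The 13 mitochondrially encoded genes had a median of 0.00, and 0 passed in any of the 3 fits, by DESeq2 or at an unadjusted p under 0.05.

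Markers of other cell types were checked beside these groups. Of 14 fibroblast and pericyte markers tested, 0 passed without the block in edgeR (3 lower at an unadjusted p under 0.05), and 1 fell by DESeq2 (0.792% of all genes fell). With the block 5 fell (4.11%), COL1A1, COL1A2, PDGFRB, ACTA2 and SPARC. The summed CPM of these markers ran from 13591 to 18417 with Ctrl-Fc and from 13655 to 18512 with EphB2-Fc, so the sums overlapped. The summed CPM of the microglial markers was 214, 219 and 214 against 215, 247 and 219, and CD68 rose with the block (log2 fold change 0.34, adjusted p = 0.652 without and 0.0185 with it). Of the astrocyte markers SLC1A3 rose and of the epithelial markers KRT8 fell with the block (2.82% and 4.11% of all genes). Of the neuronal and endothelial markers 0 passed. Their part in the results was not tested. In bulk libraries fewer cells of a type and less RNA per cell cannot be told apart.

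The scale on which the values are read shifts the center of all genes. The pseudogene RNA5-8SP6, a copy of a ribosomal RNA gene, took 10.6, 30.6 and 20.6% of TPM with Ctrl-Fc and 39.3, 38.4 and 31.9% with EphB2-Fc, and the median of all genes was -0.20 in limma on log2(TPM + 1), which understates changes of low genes. Relative to that median the interferon list was at 0.30, the NF-kB list at 0.24, the cytokines at 0.31, MHC class I at 0.17, mitosis at -0.29 and p53 targets at -0.30, while glycolysis and hypoxia was at 0.03, ER stress and ATF4 at 0.06 and extracellular matrix at -0.01. The median of all genes takes in low genes, whose shift this scale damps, and it was -0.27 on log2(TPM + 0.1). Subtracting -0.20 can therefore leave lists of well-expressed genes too low, so these relative values do not settle small rises or the size of falls. On the TPM scale itself the median was -0.17 for glycolysis and hypoxia, -0.14 for ER stress and ATF4, -0.03 for MHC class I, -0.21 for extracellular matrix, -0.22 for cholesterol synthesis, -0.15 for AP-1, -0.13 for ERK feedback, -0.09 for proteases, -0.27 for G1/S, -0.27 for smooth muscle and -0.30 for complement. The medians of these 11 lists, and of 4 marker lists (microglia, astrocyte, neuron and endothelial), were positive in the edgeR fit, so the sign of these medians differs between the 2 scales. With RNA5-8SP6 left out of the TPM, the median of all genes was 0.02, and list medians on that scale are not given here.

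Of 21 genes that the study names for these cells, 19 were tested, 18 with a positive log2 fold change and a median of 1.05. Without the block C3 and IL6 rose (0.0833% of all genes rose). With the block 14 rose, IRF7 among them, and 0 fell (2.82% and 4.11%). In the blocked fit without replicate 3, 8 rose (0.518%). The study named part of them from EphB2 against Ctrl in this series and part from other assays of the same cell line, so the count is not independent evidence of their direction.

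The same genes were then read in cells with control siRNA. EphB2 against Ctrl uses no library of the knockdown comparison but comes from the same experiments. There 8 genes passed without the block (0.037%), 5 higher (0.0231%) and 3 lower (0.0139%), and 1153 with it (5.34%), 461 higher (2.13%) and 692 lower (3.2%). Of the 25 genes that passed in the knockdown cells, 24 had the same sign with control siRNA, UPK1A being the exception, and their median log2 fold change was 0.56 in the knockdown cells and 0.35 with control siRNA. The larger value in the knockdown cells was a property of 24 of the 25, which had been selected on that contrast. Among the genes higher with the block in the knockdown cells and over 1 CPM, 549 of 598 (91.8%) had a positive value with control siRNA, and among those lower 851 of 880 (96.7%) had a negative one, against the same sign in 70.0% of all 14233 genes over 1 CPM.

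Gene by gene, the log2 fold change in the knockdown cells and with control siRNA was 2.40 and 2.11 for C3, 2.48 and 2.40 for IL32, 1.14 and 1.04 for IL6, 1.40 and 1.09 for BIRC3, and -0.50 and -0.45 for KIF20A. For MX2 it was 1.05 and 1.37. C3 read 7.26, 9.96 and 8.83 CPM in Ctrl and 27.8, 46.0 and 39.5 CPM in EphB2, so the EphB2 range overlapped that of the EphB2 + ephrin-B1 siRNA libraries.

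The difference between these responses was tested as an interaction. Without the block 0 of 21601 genes passed in edgeR's quasi-likelihood test (498 at an unadjusted p under 0.05), while DESeq2 called 2, UPK1A and LY6G5C. With the block 1 passed, UPK1A (0.00463%; adjusted p = 0.00358 with and 0.212 without the block). The 95% intervals of some genes that passed in the knockdown cells are given as a description. They come from the fit without the block, which does not use the pairing, and intervals of the blocked fit are not given here. That choice used the knockdown response, which is part of the interaction, so the choice can shift the differences in the direction of that response. For C3 the response was larger in the knockdown cells by 0.29 on the log2 scale, with an interval from -0.34 to 0.92, for IL32 by 0.08 (-1.06 to 1.22), for IL6 by 0.10 (-0.45 to 0.66) and for KIF20A it differed by -0.05 (-0.23 to 0.14). For NFKBIA the response was larger by 0.33 (0.07 to 0.58), for STC2 by 0.44 (0.18 to 0.70), for SLCO4A1 by 0.44 (0.22 to 0.67), for VEGFC by 0.29 (0.03 to 0.55) and for PFKFB4 by 0.32 (0.13 to 0.50). The intervals are not adjusted for the number of genes or for this choice, and none of these genes passed the adjusted threshold.

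Over all 14233 genes above 1 CPM the median response was -0.02 in the knockdown cells and -0.02 with control siRNA, and 49.8% had the higher value in the knockdown cells. By list, the median response over members above 1 CPM was 0.42 in the knockdown cells and 0.57 with control siRNA for interferon genes, of which 15 of 66 responded more in the knockdown cells. It was 0.35 and 0.29 for NF-kB genes (18 of 29), 0.65 and 0.43 for cytokines and chemokines (18 of 22), -0.20 and -0.15 for mitosis (13 of 36 with the higher value) and 0.16 and 0.03 for glycolysis and hypoxia (21 of 25). For cholesterol synthesis it was 0.07 and 0.22 (4 of 24), and with the block 11 members rose with control siRNA (2.13% of all genes rose there). No member of these lists passed the interaction test in edgeR with or without the block.

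**Figure D4:**
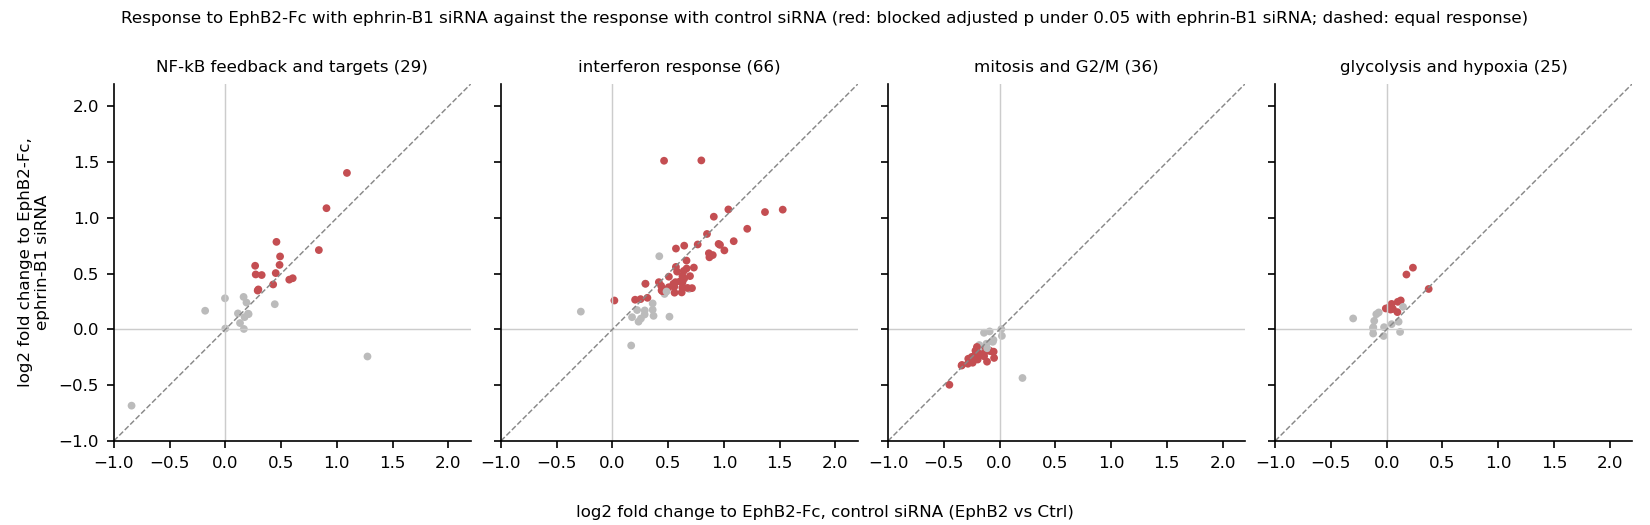
Log2 fold change to EphB2-Fc in cells with ephrin-B1 siRNA (vertical) against that in cells with control siRNA (horizontal), for the members over 1 CPM of 4 gene lists, with their number in parentheses. Each point is a gene, red where the blocked test passed in the knockdown cells, and the dashed line marks an equal response. Interferon members lie mostly below the line (15 of 66 above it) and glycolysis and hypoxia members mostly above it (21 of 25).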

How the data were processed

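RNA of HMC3 cells was rRNA-depleted and sequenced as paired reads of 100 bases by the authors. Per the study's methods, reads were assigned with kallisto (version not given in the sources used here) to the Ensembl release 109 transcripts of GRCh38. The deposited tables hold, for each of 188753 transcripts in each of 12 libraries, an estimated count and a TPM value that the authors' kallisto run computed. Groups and replicate numbers came from the labels.

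Transcripts were joined to genes of GENCODE version 44. Of them 167067 matched (88.5%), giving 36315 genes that held 95.25 to 95.98% of the estimated counts. The summed counts of a gene were rounded, genes under 10 counts in all libraries together were dropped (21601 remained), and edgeR 4.0.16 in R 4.3.3 (TMM, quasi-likelihood test, Benjamini-Hochberg, two-sided) was fitted to all 4 groups without a block. CPM are TMM-normalized. With 3 libraries a group, p-values without the block measure the spread between experiments of 1 line, pooled over the 4 groups. With the block they measure the spread left after differences between replicate numbers are taken out. The group labels carry the same replicate numbers and the names of the submitted tables the same experiment numbers (2, 3 and 5), so same-numbered libraries were treated as pairs. The correlations of their deviations were 0.75, 0.72 and 0.08. The block lowered edgeR's common coefficient of biological variation from 0.182 to 0.0649. Alternatives were the block, DESeq2 1.42.0, limma 3.58.1 on log2(TPM + 1) and log2(TPM + 0.1), other filters, a length offset and left-out libraries. The edgeR, DESeq2 and limma code was tested on simulated data. In edgeR without the block, 18.7% of simulated log2 changes of 0.5 were recovered, and over all sizes 5 of 113 calls were false. With the block 62.5% were recovered, and 15 of 180 calls were false. The 2 fits were run on separate simulated counts. Those for the fit without the block held no differences shared by same-numbered libraries, unlike the real libraries. The rates describe the simulated counts and are not rates for the real data. Promoters were RefSeq sequences, available for 13482 genes tested. Figures and summaries used Python 3.11.15.

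The members, gene lists and motifs were chosen with earlier results of these data known. Named genes were the 10 largest rises and falls past the threshold, filled up from the blocked fit where fewer passed, up to 4 passing members per list, up to 5 genes per direction of the interaction, and the ephrins, Eph receptors, markers and genes the study names.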

Additional observations from a re-analysis of the deposited data

Results flagged for a closer look

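For UPK1A the response to EphB2-Fc differed between cells with ephrin-B1 siRNA and cells with control siRNA in the blocked edgeR interaction test (adjusted p = 0.00358). Without the block the adjusted p was 0.212. The EphB2 + ephrin-B1 siRNA libraries had 0 counts, against 145 over the ephrin-B1 siRNA libraries, while with control siRNA the gene read 1.35, 1.39 and 1.20 CPM in Ctrl and 3.20, 1.33 and 1.71 CPM in EphB2. The fitted difference is set by the group at 0 and is not given as a size. The cause was not tested.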

How the results depend on the processing

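The response in knockdown cells (25 genes without the block) held 72.0% rises, against 40.7% with the replicate block and 40% with DESeq2. The count was 1496 with the replicate block, 1494 without RNA5-8SP6 as well, 478 with a transcript length offset and the block, and 1803 with the block in the 2 groups alone. With the block it was 891, 765 and 169 without replicates 1, 2 and 3, 872, 811 and 656 without each ephrin-B1 siRNA library, and 757, 986 and 799 without each EphB2 + ephrin-B1 siRNA library. All 25 genes were called in each of these blocked edgeR fits, except 24 with the length offset. Without the block it was 285 by DESeq2 (1278 with the block), 42 with filterByExpr, 7 with the length offset, 2 by limma on log2(TPM + 1) (SEPTIN7P2 and ENSG00000261459), 2 by limma on log2(TPM + 0.1) (SEPTIN7P2 and UPK1A), and 2 in the 2 groups alone (BIRC3 and C3). In edgeR without the block 766 genes met the study's thresholds, read as unadjusted p and fold. Limma on log2(TPM + 1) with the block gave 1233, of which 35 were rises, and without RNA5-8SP6 it gave 7, or 387 with the block. The median of all genes was -0.20 and -0.27 on the TPM scales, and 0.02 on log2(TPM + 1) without RNA5-8SP6. Leaving out libraries without the block gave 0 to 27 genes, 0 without ephrin-B1 siRNA replicate 3 (1327 at an unadjusted p under 0.05), 2 without EphB2 + ephrin-B1 siRNA replicate 3, and 3, 1 and 0 without replicates 1, 2 and 3 in all groups. The cause of these changes was not tested.

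EphB2 against Ctrl gave 8 genes, 1153 with the block, 140 with the block without replicate 3, 205 by DESeq2 (1111 with the block), 13 with genes of at least 1 count, 0 with the length offset, 0 and 1 by limma on the TPM scales, and 0 to 15 with libraries left out. The interaction gave 0, then 1 with the block, 2 and 25 by DESeq2 without and with the block, 1 with genes of at least 1 count, 6, 12 and 0 with the block without replicates 3, 2 and 1, 1 to 3 with the block without a single library of the knockdown groups, and 0 in each fit without the block that left out libraries. EFNB1 stayed lower under every setting run. In limma on log2(TPM + 1) its difference was -0.95 and -1.17, no longer past the threshold, and with libraries left out it ran from -1.48 to -1.27 against Ctrl and from -1.55 to -1.42 against EphB2. None of the 25 genes that passed without the block reversed its direction under these settings, while medians of some lists, which carry no test, changed sign on the TPM scale. The settings that combine the block with left-out single libraries or replicates 1 and 2, and those without RNA5-8SP6 or with the length offset and the block, were chosen after seeing the data. The block was taken as a pairing, with the doubt about replicate 3, and removed none of the 25 calls.

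Low genes such as CSF2, CCL11 and CXCL10 lay at or near the floor of 3 counts, so a response could not be read for them.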
